A study of Arabidopsis thaliana with 2 samples.

Results

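Glutathione S-transferases (GSTs) join the tripeptide glutathione to reactive or toxic small molecules, or bind such molecules without changing them, and plants carry a large phi class (GSTF) and a large tau class (GSTU) besides several smaller classes. Phi-class GSTs are mostly soluble proteins. Many of their genes respond to salicylic acid, pathogens, herbicides or oxidants, and single members take part in the synthesis or transport of defence compounds and pigments.

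10 phi-class genes of Arabidopsis thaliana, of 25224 genes measured, were examined on membrane-bound polysomes (MBPs), the polysomes that come down with microsomal membranes such as the rough ER. They were picked by locus and are GSTF2, GSTF3, GSTF6, GSTF7, GSTF8, GSTF9, GSTF10, GSTF11, GSTF12 and GSTF14. The phi genes GSTF4, GSTF5 and GSTF13 lie outside this choice. MBPs came from wild-type seedlings of 13 days, grown on plates in long days. MBP ribo-seq captured the short RNA fragments that ribosomes shielded from RNase I, taken from the monosome peak of a gradient and depleted of rRNA. MBP mRNA-seq measured transcripts of the same kind of fraction. There was 1 library per assay, made from whole seedlings with a single biological replicate, so the differences below describe these 2 libraries and have no replicate check. Library preparation also differed between the assays, and its part in a ratio cannot be told apart from that of ribosomes.

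The ribo-seq library had a depth of 38438720 reads and the mRNA-seq library of 66958223 reads. Values are RPM (reads of a feature scaled to the total reads of its library) over the coding exons of a gene. Within the family, 34116 reads were counted in ribo-seq against 49763 in mRNA-seq. The 95% intervals below take in the error of counting alone and treat each read as independent. Reads copied by PCR do not each stand for a molecule, so these intervals may be too narrow. A value of 0 leaves room for as many as 3 reads, which is 0.0780 RPM at the depth of ribo-seq and 0.0448 RPM at that of mRNA-seq. Green tissue markers (RBCS1A, CAB3 and CA1) summed to 14819 RPM in ribo-seq against 18820 RPM in mRNA-seq, mostly from RBCS1A and CA1. CAB3 had 35.4 RPM in ribo-seq against 228 RPM in mRNA-seq. The ER chaperones BIP2, CNX1, CRT1b and PDI summed to 420.0 RPM in ribo-seq against 400.2 RPM in mRNA-seq. They did not all go 1 way, with PDI at a fold of 1.34 and CRT1b at 0.788. Root markers summed to 18.3 RPM in ribo-seq against 50.1 RPM in mRNA-seq over 4 genes, mostly from SCR and GL2. WER had 0.468 RPM in ribo-seq against 0.418 RPM in mRNA-seq, and COBL9 0.312 RPM in ribo-seq against 0.119 RPM in mRNA-seq. The flower gene AG had 2 ribo-seq reads. None of these markers was at 0 in either library, and their part in the ratios below was not tested. In whole seedlings, fewer cells of a type and less RNA per cell cannot be told apart.

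Members of this family resemble each other so closely in places that a ribosome footprint cannot always be given to 1 gene. The first coding bases of the 4 defence-related members are shown for this reason, from the start codon on, as read from the RefSeq TAIR10.1 genome, whose annotation also gave the gene coordinates printed further on. GSTF2 and GSTF3 begin alike, as do GSTF6 and GSTF7, so no base is in capitals.
GSTF2: atggcaggtatcaaagttttcggacaccca
GSTF3: atggcaggtatcaaagttttcggacaccca
GSTF6: atggcaggaatcaaagttttcggtcaccca
GSTF7: atggcaggaatcaaagttttcggtcaccca
These bases lie on the minus strand at chr4:1111502-1111531 for GSTF2, chr2:852077-852106 for GSTF3, chr1:662162-662191 for GSTF6 and chr1:659676-659705 for GSTF7.

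The stretches where each pair differs most are shown next, since reads from such places carry the split between copies. Capitals mark the bases that differ from the partner gene.
GSTF2: gcttTTgaacaaAtattcaagtCcaTctaC
GSTF3: gcttGGgaacaaGtattcaagtTcaActaT
GSTF6: atGAAtTctcagacaaaggaaacAaCcttC
GSTF7: atTTTtActcagacaaaggaaacCaActtG
They cover coding bases 355 to 384 of GSTF2 (chr4:1110928-1110957) and GSTF3 (chr2:851603-851632), and coding bases 230 to 259 of GSTF6 (chr1:661731-661760) and GSTF7 (chr1:659257-659286), all on the minus strand. GSTF2 and GSTF3 differ at 6 of these 30 bases and GSTF6 and GSTF7 at 7.

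Over the whole coding sequence, GSTF2 and GSTF3 were identical at 94.5% of aligned positions, with 35 differing bases, and their longest identical stretch was 74 bases. GSTF6 and GSTF7 were identical at 94.7%, with 33 differing bases and an identical stretch of 116 bases. In windows of 28 bases, a typical footprint length, 22.5% of GSTF2 and of GSTF3, 33.8% of GSTF6 and 33.7% of GSTF7 occurred also elsewhere, in each case in the partner gene. The other 6 members had 0 such windows. GSTF9 and GSTF10 are neighbours too, yet their coding sequences already part in the first bases, where 13 of 30 differ (plus strand, chr2:13139132-13139161 and chr2:13141490-13141519).
GSTF9: atggtgCtAaAGGtGtaCgGAcctCACttT
GSTF10: atggtgTtGaCAAtCtaTgCTcctTTAttC
The study's methods describe dropping reads that mapped to more than 1 place for mRNA-seq in general. They do not say whether this held for the MBP mRNA-seq library, nor how such reads were treated in ribo-seq, so the values of GSTF2, GSTF3, GSTF6 and GSTF7 are uncertain as single genes, whereas the other 6 members have no exact copy of this length elsewhere.

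All 10 members reached 1 RPM in ribo-seq and 9 did so in mRNA-seq, so 9 of 10 reached it in both, beside 60% of all genes. Levels differed widely within the family. Per kb of coding sequence, the highest member exceeded the lowest 306-fold in ribo-seq and 439-fold in mRNA-seq. GSTF8, GSTF9 and GSTF10 held 83.6% of the family's ribo-seq exon RPM and 86.7% of its mRNA-seq exon RPM.

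**Figure D1:**
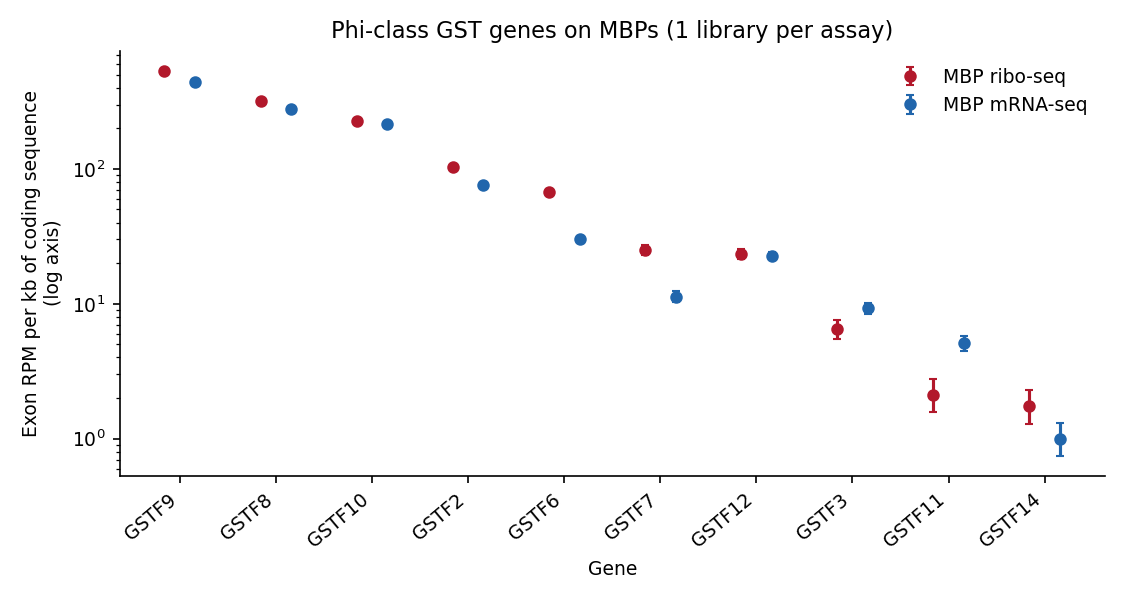
Exon RPM per kb of coding sequence (log axis) of each phi-class gene in MBP ribo-seq and in MBP mRNA-seq, 1 library each, with bars for the 95% Poisson interval of the reads. GSTF9 is highest in both libraries and GSTF14 lowest in both, and GSTF7 lies above GSTF12 in ribo-seq but below it in mRNA-seq.

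In ribo-seq the order of levels per kb was GSTF9 (531), GSTF8 (318), GSTF10 (225), GSTF2 (103), GSTF6 (67.0), GSTF7 (25.1), GSTF12 (23.3), GSTF3 (6.47), GSTF11 (2.10) and GSTF14 (1.73). The counting intervals of GSTF7 and GSTF12, and of GSTF11 and GSTF14, overlapped, and those of the other neighbours in this order did not. In mRNA-seq the levels per kb were 437 for GSTF9, 280 for GSTF8, 216 for GSTF10, 75.3 for GSTF2, 30.2 for GSTF6, 22.7 for GSTF12, 11.3 for GSTF7, 9.23 for GSTF3, 5.09 for GSTF11 and 0.996 for GSTF14. The order was the same but for GSTF12 and GSTF7. Per kb of exons with UTRs all levels were lower in both libraries, with GSTF9 at 280.4 in ribo-seq and 291 in mRNA-seq. By this measure GSTF12 (13.9) came before GSTF7 (13.0) in ribo-seq too. In mRNA-seq GSTF10 (161) came before GSTF8 (155), and GSTF3 (7.44) before GSTF7 (7.19).

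To set ribosome-protected reads against transcript, each gene's exon RPM in ribo-seq was divided by that in mRNA-seq after 1 RPM had been added to both as a pseudocount. The log2 of this quotient, taken where the mean exon value reached 1 RPM, is the ratio used below. The family was chosen with its ratios already known, so they are a description and carry no test. All 10 members passed this filter, as did 16879 of all genes. Their median ratio was 0.23, against -0.99 over all genes, a difference of 1.22 on the log2 scale, or 2.33 times. All 10 members lay above the median gene (50% of all genes do), 9 above the upper quartile of -0.52, and 8 above a ratio of 0 (5.8% of all genes). More than 4-fold above the median gene lay 2 members (0.432% of all genes), GSTF6 and GSTF7, and more than 4-fold below it lay 0 members (1.72% of all genes). The choice of genes used this comparison, so nothing is read from these shares. With a pseudocount of 5, without a filter or with UTR values added, 0 members lay beyond 4-fold. The share of all genes beyond 4-fold was not computed under these settings. The level of the ratio depends on scaling, since rescaling each library to its sum over nuclear genes moved the median gene to -0.36, and values are therefore also given relative to the median gene.

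Genes with coding sequences as short as those of the family had higher ratios than the median gene. The members' coding sequences are 627 to 792 bases long, and the 1511 genes of that length range had a median ratio of -0.63, with 11.0% above 0. Against these genes the median member lay 0.86 higher on the log2 scale, 9 members lay above their median and 8 above their upper quartile of -0.27. More than 4-fold above their median lay 0 members. The share of the 1511 genes past that limit was not computed, so nothing is read from this count. This reference was chosen after the data had been seen.

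**Figure D2:**
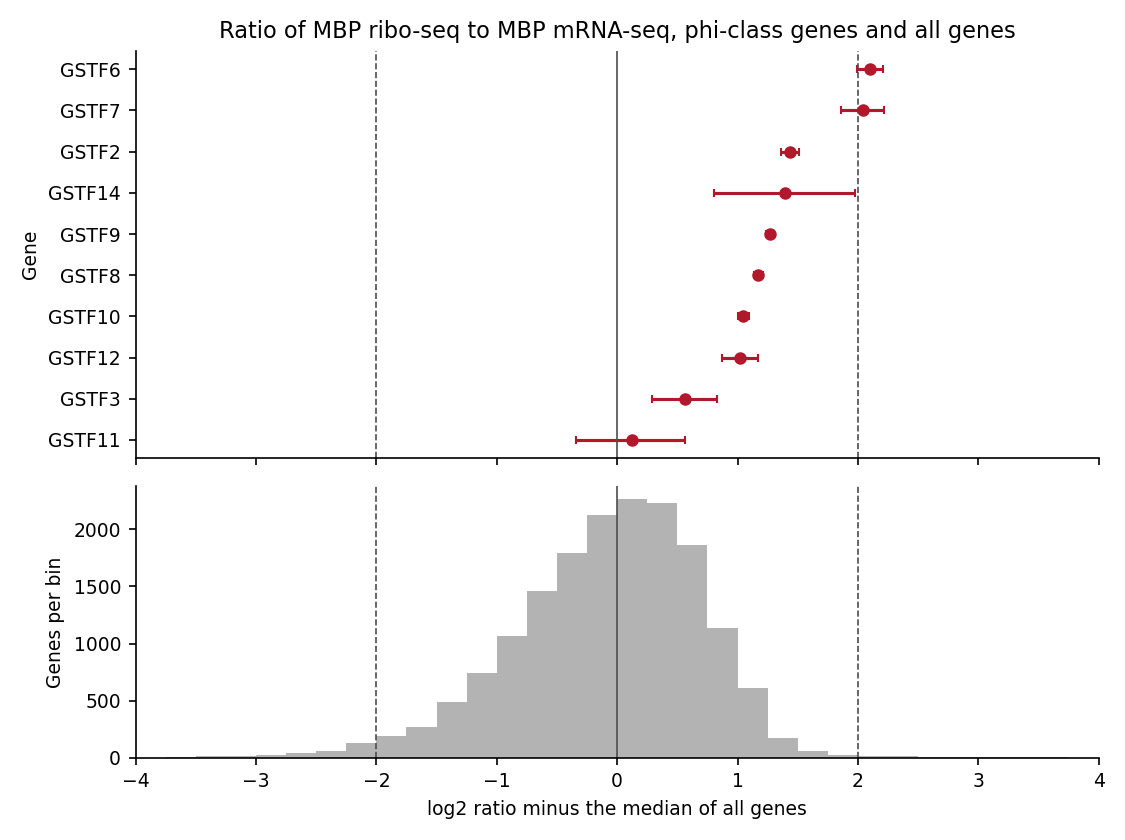
Upper panel, log2 ratio (MBP ribo-seq over MBP mRNA-seq) minus the median of all genes for each phi-class gene, with bars for the 95% counting interval of the fold. The bars come from the fold without a pseudocount, placed around the ratio with it, and are approximate for genes of low RPM. Lower panel, the same measure over 16879 genes in bins of 0.25, with dashed lines at 4-fold. The members run between 0.12 for GSTF11 and 2.10 for GSTF6, and the bars of GSTF6 and GSTF7 include the 4-fold line.

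GSTF6 and GSTF7 had the highest ratios. GSTF6 (AT1G02930, chr1:661088-662475) helps make the Arabidopsis phytoalexin camalexin by joining glutathione to an indole precursor. It had 42.0 RPM (1615 reads) in ribo-seq against 18.9 RPM (1266 reads) in mRNA-seq, a fold of 2.22 (2.06 to 2.39). Its ratio of 1.11 was the highest of the family and lay 2.10 above the median gene (1.99 to 2.21), at percentile 99.6 of all genes. GSTF7 (AT1G02920, chr1:658578-659980), its neighbour on the same strand and a gene induced by salicylic acid, had 15.8 RPM (608 reads) in ribo-seq against 7.12 RPM (477 reads) in mRNA-seq. The fold was again 2.22 (1.97 to 2.51), and the ratio lay 2.04 above the median gene (1.86 to 2.21). Both genes thus had a higher RPM in ribo-seq than in mRNA-seq, and the counting interval of both includes the 4-fold limit. They are also the members with the largest shares of 28-base windows found elsewhere (33.8% and 33.7%), whose part in these ratios was not tested.

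GSTF6 exceeded GSTF7 2.66-fold in ribo-seq (2.42 to 2.92) and 2.65-fold in mRNA-seq (2.39 to 2.96). The split between these copies was thus much alike in the libraries. Summed as 1 gene they had 57.8 RPM in ribo-seq against 26.0 RPM in mRNA-seq, a fold of 2.22. As a pair they lay 2.11 above the median gene, much as each copy did.

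GSTF2 (AT4G02520, chr4:1110343-1112033) binds camalexin and related indoles, as well as flavonols. It had 66.1 RPM (2540 reads) in ribo-seq against 48.1 RPM (3222 reads) in mRNA-seq, with a fold of 1.37 (1.30 to 1.45) and a ratio 1.44 above the median gene. GSTF3 (AT2G02930, chr2:851156-852321), the near-identical copy on another chromosome, had 4.14 RPM (159 reads) in ribo-seq against 5.90 RPM (395 reads) in mRNA-seq, with a fold of 0.701 (0.580 to 0.845) and a ratio 0.56 above the median gene. Here the copies parted. GSTF2 exceeded GSTF3 16.0-fold in ribo-seq (13.6 to 18.9) and 8.16-fold in mRNA-seq (7.35 to 9.08), intervals that do not overlap. Unlike the other members, GSTF3 has 2 coding exons in place of 3. Summed, the pair had 70.2 RPM in ribo-seq against 54.0 RPM in mRNA-seq and lay 1.36 above the median gene.

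The 3 most abundant members gave the best-counted ratios. GSTF9 (AT2G30860, chr2:13138882-13140392) is a glutathione-dependent enzyme linked to tolerance of oxidants. It had 344 RPM (13225 reads) in ribo-seq against 283 RPM (18953 reads) in mRNA-seq, a fold of 1.22 (1.19 to 1.24). GSTF8 (AT2G47730, chr2:19556326-19559485) is a widely used marker of early stress responses whose protein can enter plastids. It had 252 RPM (9689 reads) in ribo-seq against 222 RPM (14838 reads) in mRNA-seq, a fold of 1.14 (1.11 to 1.17). GSTF10 (AT2G30870, chr2:13141290-13142676), known also as an early dehydration-induced gene, had 146 RPM (5600 reads) in ribo-seq against 140 RPM (9359 reads) in mRNA-seq, a fold of 1.04 (1.01 to 1.08). These 3 genes lay 1.27, 1.17 and 1.05 above the median gene, a narrow band beside the spread of the whole family.

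The neighbours GSTF9 and GSTF10, which share no 28-base window, differed 2.36-fold in ribo-seq (2.29 to 2.44) and 2.03-fold in mRNA-seq (1.98 to 2.08). GSTF9 was also 1 of 2 members listed with more than 1 isoform. Its second isoform has a coding sequence of 501 bases in 4 exons and had 257 RPM in ribo-seq against 205 RPM in mRNA-seq. Its ratio of 0.32 was close to the 0.28 of the first isoform. A read counts for each isoform it overlaps, so these are not separate measurements. The 2 isoforms of GSTF6 share their coding sequence length and had the same exon values.

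GSTF12 (AT5G17220, chr5:5658416-5659661), also called TRANSPARENT TESTA 19, carries anthocyanins and proanthocyanidin precursors towards the vacuole. It had 15.0 RPM (577 reads) in ribo-seq against 14.7 RPM (982 reads) in mRNA-seq, a fold of 1.02 (0.922 to 1.14), and lay 1.02 above the median gene. GSTF11 (AT3G03190, chr3:734892-735987), which has been linked to glucosinolate synthesis, had 1.35 RPM (52 reads) in ribo-seq against 3.29 RPM (220 reads) in mRNA-seq. Its fold of 0.412 (0.298 to 0.559) was the lowest of the family. Its ratio lay 0.12 above the median gene. The counting interval of its fold, which has no pseudocount, ran from -0.34 to 0.57 when placed around this difference. At this depth GSTF11 could thus not be told from the median gene, and its difference turned to -0.050 when libraries were rescaled to their nuclear sums. GSTF11 and GSTF12 were identical at 75.4% of aligned coding positions.

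GSTF14 (AT1G49860, chr1:18458526-18459969) had 51 reads in each library, which is 1.33 RPM in ribo-seq against 0.762 RPM in mRNA-seq. The fold was 1.74 (1.16 to 2.62). With a mean of 1.04 RPM it lay just inside the filter, which it passed through its ribo-seq value. It lay 1.39 above the median gene, below the 1.44 of GSTF2, although its fold without a pseudocount was the higher of both. Among phi genes outside the choice, GSTF4 had 2.52 RPM (97 reads) in ribo-seq against 3.46 RPM (232 reads) in mRNA-seq, and lay 0.65 above the median gene. GSTF5 had 13 reads in ribo-seq and 40 in mRNA-seq, and GSTF13 had 3 reads in ribo-seq and 5 in mRNA-seq, both under the filter.

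Whether ribosome-protected reads of these genes lay in coding sequence, while mRNA reads covered the whole transcript, was asked from the UTR values, which are likewise described without a test. Over the 9 members with values for all 3 features, exons held 99.7% of the ribo-seq reads (Wilson interval 99.6 to 99.7) and 78.9% of the mRNA-seq reads (78.6 to 79.2). The 3′ UTR held 0.0673% of the ribo-seq reads (0.0448 to 0.101), which is 23 of 34177, and 18.9% of the mRNA-seq reads (18.6 to 19.2), which is 11892 of 62984. The 5′ UTR held 0.260% in ribo-seq (0.212 to 0.320) and 2.19% in mRNA-seq (2.08 to 2.31). Over the 15352 genes of the series with all 3 features, exons held 95.9% in ribo-seq and 83.3% in mRNA-seq, and the 3′ UTR 2.88% in ribo-seq and 12.6% in mRNA-seq. Summed over these 9 members, the family had a smaller ribo-seq 3′ UTR share than the sum of all genes and a larger mRNA-seq one. Not every member followed. In mRNA-seq the 3′ UTR share was 6.04% (4.76 to 7.62) for GSTF12 and 9.13% (6.16 to 13.3) for GSTF11. The 0 ribo-seq reads of GSTF11 allow a 3′ UTR share of up to 5.77%.

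**Figure D3:**
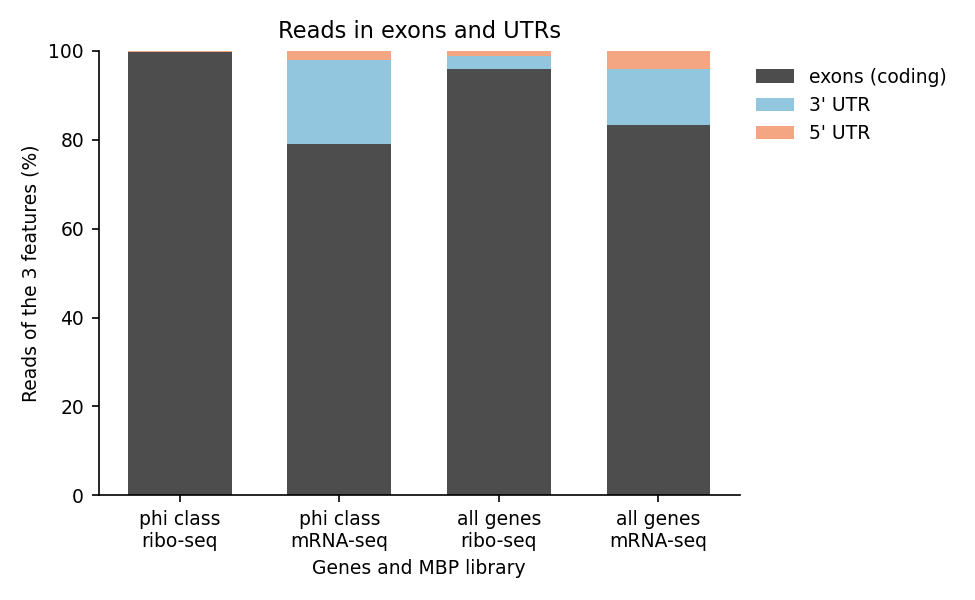
Share of reads, in percent, in coding exons, 3′ UTR and 5′ UTR, for 9 phi-class genes and for 15352 genes of the series, in MBP ribo-seq and MBP mRNA-seq. In the phi class the 3′ UTR holds 0.0673% in ribo-seq and 18.9% in mRNA-seq.

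Among single members, GSTF9 had the most 5′ UTR reads, 57 in ribo-seq and 641 in mRNA-seq, or 0.429% of its ribo-seq reads (0.331 to 0.555) and 2.67% of its mRNA-seq reads (2.47 to 2.88). GSTF6 had 11 in ribo-seq and 99 in mRNA-seq. GSTF12 had the highest 5′ UTR share in ribo-seq, 1.20% (0.581 to 2.45), from 7 reads, against 2.79% in mRNA-seq. GSTF2 and GSTF3 had the highest 5′ UTR shares in mRNA-seq, 6.18% and 6.72%, beside 5 reads and 0 reads in ribo-seq. The 0 reads of GSTF3, GSTF7 and GSTF11 in ribo-seq allow 5′ UTR shares of up to 1.89%, 0.493% and 5.77%, against mRNA-seq shares of 6.72%, 3.25% and 3.57%. For GSTF3 and GSTF7 this limit lies below the mRNA-seq share, and for GSTF11 it does not. In the 3′ UTR, GSTF9 had 6 reads in ribo-seq and 4428 in mRNA-seq, and GSTF10 had 4 in ribo-seq and 2725 in mRNA-seq.

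UTR occupancy compared how many UTR reads there were for each exon read in ribo-seq and in mRNA-seq, as a log2 quotient of ribo-seq over mRNA-seq. A pseudocount of 0.5 was added, and UTRs with a mean below 0.5 RPM were left out. For the 5′ UTR, 5 of 9 members passed, with a median of -2.46 (range -3.35 to -1.72) against -0.87 over 7029 genes. For the 3′ UTR, 7 of 10 passed, with a median of -5.30 (-6.95 to -1.43) against -1.92 over 11238 genes. All 7 of these 3′ UTRs and 4 of the 5 5′ UTRs reached the limit of 0.5 RPM in mRNA-seq alone. The filter thus favoured values below 0, and these medians are no support for a low occupancy. Without a filter the 3′ UTR median was -3.86 over 10 members, against -0.87 over all genes. The 5′ UTR median was then -1.75 over 9 members, against 0.0044 over all genes. Such values are bounded by the pseudocount where ribo-seq UTR reads are few, and are less extreme for low genes.

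The other glutathione genes were set beside the phi class in lists. The tau class is the other large GST class of plants. Of 28 tau genes 17 passed the filter, and their median ratio was 0.26. Above the median gene lay 15 (50% of all genes do). Above 0 lay 10, beside 5.8% of all genes and 11.0% of genes in the phi range of coding length. The median coding length of these tau genes, 675 bases, is within that range. Beyond 4-fold lay 0, beside 0.432% of all genes above and 1.72% below. Tau genes summed to 792 RPM in ribo-seq against 610 RPM in mRNA-seq, and the phi genes to 888 RPM in ribo-seq against 743 RPM in mRNA-seq. The tau gene with the highest ratio was GSTU24, with 16.3 RPM in ribo-seq against 8.14 RPM in mRNA-seq, and the lowest was GSTU18, with 11.5 RPM in ribo-seq against 30.6 RPM in mRNA-seq. The phi-class median thus lay within the range of the tau class.

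Of the smaller classes, the zeta gene GSTZ1, an isomerase of tyrosine breakdown, lay 1.16 above the median gene. The 3 theta genes had a median ratio of -1.17, between GSTT1 (-0.41) and GSTT2 (-1.43). GSTT2 has a coding sequence of 1776 bases, well beyond the phi range. The lambda genes GSTL3 and GSTL2 had ratios of -0.31 and -0.43. The dehydroascorbate reductases, which use glutathione to restore ascorbate, had a median ratio of -0.09, with DHAR1 at 0.56 and DHAR3 at -0.49.

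Enzymes that make, reduce or break down glutathione had a median ratio of -0.94, and 6 of 11 lay above the median gene (50% of all genes do). GGP1, a cytosolic peptidase that cleaves glutathione conjugates, was highest at 0.36 and GR2, the organellar glutathione reductase, was lowest at -1.66. Of the glutathione peroxidase-like genes, 7 of 8 passed, between GPX6 (0.25) and GPX5 (-0.88). All 7 lay above the median gene, beside 50% of all genes. Their coding sequences are short too, with a median of 621 bases. Against the median ratio of -0.63 for genes in the phi range of coding length, some of them, GPX5 included, lay below. The vacuolar ABC transporters that take up glutathione conjugates stood at the other end, with a median of -2.45 and 0 of 3 above the median gene, between ABCC2 (-2.40) and ABCC3 (-2.61). Their coding sequences are the longest of these lists, 4545 to 4872 bases.

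Pathways served by single phi members were spread over a wide range. In anthocyanin and proanthocyanidin synthesis, where GSTF12 acts, 10 of 13 genes passed and all 10 lay above the median gene (50% of all genes do). Their median ratio was -0.05, with the chalcone isomerase gene TT5 highest at 0.36 and TT7 lowest at -0.93. In camalexin synthesis, where GSTF6 acts, 3 of 4 passed, 2 lay above the median gene and the median was -0.62, with CYP79B2 highest at -0.44 and CYP79B3 lowest at -1.96. The fourth, CYP71A13, was under the filter, with 35 reads in ribo-seq against 21 in mRNA-seq and a fold of 2.90 (1.64 to 5.25). It was named after its values were seen. In each of these lists 0 genes lay beyond 4-fold of the median gene. Over all genes 0.432% lay beyond it above and 1.72% below, so nothing is read from a count of 0 in such short lists.

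**Figure D4:**
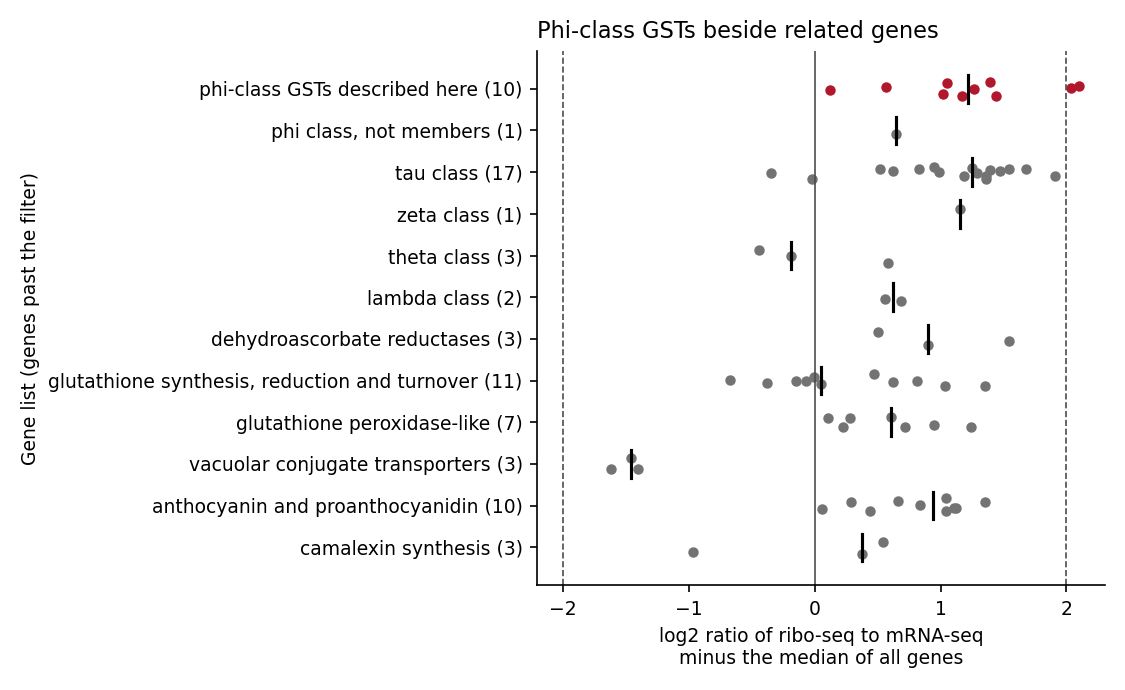
Log2 ratio (MBP ribo-seq over MBP mRNA-seq) minus the median of all genes, 1 point per gene past the filter, for the 10 phi-class genes and related lists, with a black bar at each list's median and dashed lines at 4-fold. The phi and tau medians lie 1.22 and 1.25 above the median gene, and the 3 vacuolar transporters lie below it.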

How the data were processed

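Per the authors' methods and submitters' processing notes, reads of both libraries were aligned with TopHat2 2.0 under default settings to TAIR10, and bedtools 2.23.0 gave a read to a feature at an overlap of at least 80%. The authors deposited RPM per isoform for 5′ UTR, exons and 3′ UTR. The deposited mRNA-seq exon column, also named RPM, was treated as a signal, since a read counts for every isoform it overlaps and the column sums to 1348201. For mRNA-seq in general, the methods describe collapsing identical reads and dropping those mapped to more than 1 place. Whether this held for the MBP mRNA-seq library, and how strand and multi-mapping reads were handled in ribo-seq, is not given in the sources used here.

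Of the values above 0 in each library, 99.9% were whole reads within 0.1 read, which gave the depths. Where a gene had several isoforms, the one with the largest exon value, averaged over both libraries, stood for it. As there was 1 library per assay, no test across genes was the main result. An exact binomial test on recovered reads (Benjamini-Hochberg adjustment, 16879 genes) called 595 genes higher and 15203 lower in ribo-seq against the library depths. With the median gene as the standard, 6702 were called higher and 6682 lower. It compares these libraries only, and gives no support for the members, which were chosen by the same values. The genes named were the 10 members, the other 3 phi genes and the highest and lowest ratio of each list. Members and lists were chosen with earlier results of these data known. Coding lengths, coordinates, symbols (25042 of 25224 genes matched) and sequences came from the RefSeq TAIR10.1 annotation, whose UTR limits may differ from those of TAIR10. Poisson, exact conditional binomial and Wilson intervals came from scipy 1.17.1, with Python 3.11.15, numpy 2.4.6, pandas 2.3.3, Biopython 1.88 and matplotlib 3.10.9. The 4-fold limit was tried on simulated counts with 200 genes changed 8-fold, drawn at 5 RPM or more in mRNA-seq. Of these, 178 were called in the right direction, and 0 unchanged genes were called. Smaller changes, changed genes of lower RPM and spread beyond counting error were not simulated. Alternatives covered the pseudocount, filter, scaling, isoform, UTR values and near-identical copies.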

Additional observations from a re-analysis of the deposited data

How the results depend on the processing

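The median member stayed above the median gene under every alternative run. The difference of 1.22 became 1.38 with a pseudocount of 0.1, 0.81 with a pseudocount of 5, 0.83 for unfiltered genes and, chosen after seeing the data, 0.86 against genes of the same coding length. The 2 members beyond 4-fold fell to 0 with a pseudocount of 5, without a filter or with UTR values added. They also fell to 0 against genes of the same coding length. These 2 are GSTF6 and GSTF7, so leaving out GSTF2, GSTF3, GSTF6 and GSTF7 had to give 0. Summing near-identical copies merged them into 1 entry, which lay 2.11 above the median gene, still beyond 4-fold. Where a setting also changed the reference genes, their share beyond 4-fold was not computed, and nothing is read from these counts. Adding UTR values also left 3 members, in place of 8, with a ratio above 0. The median of all genes fell to -1.20 under this setting, and all 10 members stayed above it. Rescaling to the nuclear sums put 9 members above 0. The share of all genes above 0 was not computed under either setting. For the tau class, the difference of 1.25 became 1.52 at the pseudocount of 0.1, 0.74 at that of 5 and 0.61 for unfiltered genes. GSTF11 turned to -0.076 with a pseudocount of 0.1, -0.27 without a filter and -0.050 with rescaling. The glutathione synthesis list turned to -0.16 with a pseudocount of 5 and -0.35 for unfiltered genes. With a mean of at least 10 RPM the theta class turned to 0.22 and the camalexin list to -0.19. The ribo-seq exon share was 99.8% without GSTF9, and the mRNA-seq one 79.8% without the near-identical copies. The 5′ UTR occupancy median became -3.18 with a pseudocount of 0.1, -2.99 with a mean of at least 2 RPM (2 members) and -1.75 without a filter (9 members). The 3′ UTR median became -7.13, -6.15 and -3.86 under these settings. The medians over all genes moved along with these. They became -1.83, -1.58 and 0.0044 for the 5′ UTR, and -3.92, -3.21 and -0.87 for the 3′ UTR. The causes were not tested, except that fewer members enter under a stricter filter. No paired analysis was possible because each assay has 1 library and the labels carry no replicate numbers. Depth limits GSTF11, GSTF14 and all ribo-seq UTR values, which rest on few reads.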
